A study of Homo sapiens with 6 samples.

Results

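The genes described here are 8 genes whose transcription is raised by the androgen receptor in prostate cells: KLK2, KLK3, KLK4, TMPRSS2, FKBP5, PMEPA1, STEAP2 and SLC45A3. They were chosen by name from 20037 protein-coding genes, with earlier results of these data known. Each entry of 4 peak lists lying within 100 kb of a gene was taken with its distance to the start and end of that gene. For TMPRSS2, whose strand was not given, the ends are named by coordinate. Chromatin of LNCaP and PC3, a pair of established human prostate cancer cell lines, was profiled with an antibody to METTL3 and an antibody to PRMT5. Binding was mapped in situ in permeabilised cells, where a protein G-Tn5 transposase cuts and tags the DNA next to the bound antibody, with 100000 cells and 16 PCR cycles per library. The groups were METTL3 and PRMT5 in LNCaP and METTL3 and PRMT5 in PC3, each with 1 library, and each list was called against the control library of its own line, which is titled IgG and whose antibody field names a secondary antibody. Both lines grew in RPMI-1640 with fetal bovine serum, and the labels name no added androgen, inhibitor or genetic change for any group.

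The androgen receptor is a nuclear receptor that enters the nucleus when it binds testosterone or dihydrotestosterone, sits on DNA at androgen response elements together with pioneer factors such as FOXA1, and recruits coactivators. LNCaP cells carry the receptor and respond to androgen, whereas PC3 cells grow without androgen and make little or no receptor. PRMT5 dimethylates arginines of histones and of splicing proteins in a symmetric form, and METTL3 carries the active site of the complex that adds N6-methyladenosine to RNA. The lists hold no expression values, so the labelled lines could not be checked against their markers. Every group had 1 library, so the values describe these libraries, there is no spread between replicates, and no difference between the lines was tested.

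KLK3, which encodes prostate-specific antigen, and KLK2, which encodes a closely related secreted kallikrein protease, are neighbours on chromosome 19 and arose by duplication. The 250 bases before their annotated starts are shown because both hold letters that match a form of the androgen response element. The PC3 METTL3 entry described further on lies between the shown stretches, nearer to that of KLK2. Both are on the plus strand of GRCh38.p14 and come from RefSeq. Capitals mark the letters that match the spaced element GNACANNNNGTNC and, in KLK3, also the single element AGAACA that overlaps it.
KLK3, chr19:50854665-50854914: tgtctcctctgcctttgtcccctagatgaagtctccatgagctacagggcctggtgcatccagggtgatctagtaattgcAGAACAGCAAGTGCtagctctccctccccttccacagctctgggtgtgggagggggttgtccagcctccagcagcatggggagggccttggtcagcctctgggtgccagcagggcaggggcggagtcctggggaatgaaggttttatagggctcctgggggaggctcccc
KLK2, chr19:50873189-50873438: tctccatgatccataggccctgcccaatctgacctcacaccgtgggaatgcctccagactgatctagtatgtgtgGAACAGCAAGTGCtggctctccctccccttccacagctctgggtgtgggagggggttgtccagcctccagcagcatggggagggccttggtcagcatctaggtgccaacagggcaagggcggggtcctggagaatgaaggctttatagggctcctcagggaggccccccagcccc

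The spaced element lay 169 to 157 bases before the start of KLK3 and 175 to 163 bases before the start of KLK2, with the same letters, GAACAGCAAGTGC, on the gene's own strand in both. Searched on both strands, GNACANNNNGTNC was present in 634 of 35116 windows of the same length before all annotated starts, 1.81%. Among the 13 windows of 7 of the 8 genes it was found in 2, those of KLK3 and KLK2. This form leaves free the base before GT, which is T in the full palindrome and A in both genes. With T required there, neither of these stretches would match. The 2 matches are copies of a duplicated stretch and are not independent, so the share of all windows is a description alone. The single element AGAACA was present in 12.4% of all windows and in 2 of the 13, those of KLK3 and of an inner start of PMEPA1. The full palindrome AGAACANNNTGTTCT was found in none of the 13 and in 1 of all windows. A match is a match of letters and not evidence of binding. The KLK3 and KLK2 stretches were identical at 206 of 240 aligned bases, 85.8%, and shared an unbroken run of 80 bases, so short reads from such stretches need not be unique to either gene. None of the 13 start windows, which reach from 250 bases before to 50 after a start, was overlapped by an entry of any list. TMPRSS2 was the gene without a start window.

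Over the 4 lists, 7 entries lay within 100 kb of a gene of the set, 1 of them from LNCaP and 6 from PC3. LNCaP METTL3 gave 0 entries, LNCaP PRMT5 1, PC3 METTL3 4 and PC3 PRMT5 2. In all, 5 of the 8 genes had an entry, namely KLK2, KLK3, KLK4, TMPRSS2 and PMEPA1, and 3 had none, namely FKBP5, STEAP2 and SLC45A3. No entry of the 7 overlapped an entry of another list, in any of the 6 pairs of lists.

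Read against all protein-coding genes, the share of the set within 100 kb of an entry was near the general level in PC3. In LNCaP it was led by a single entry. With LNCaP METTL3, 0 of 8 genes had an entry within 100 kb, against 1.52% of all protein-coding genes. With LNCaP PRMT5, 3 of 8 did, 37.5%, against 12.7% of all protein-coding genes, but the 3 are KLK2, KLK3 and KLK4, which share 1 entry. With PC3 METTL3, 4 of 8 did, 50%, against 38.3%, and here too KLK2, KLK3 and KLK4 share an entry, so that the 4 genes are 2 loci. With PC3 PRMT5, 2 of 8 did, 25%, against 18.6%. Taking both antibodies of a line together, 3 of 8 genes had an entry in LNCaP, where 13.3% of all protein-coding genes had one, and 5 of 8 in PC3, where 49.2% had one. The 8 windows merge into 6 stretches of 1.57 Mb in all, in which LNCaP PRMT5 had 0.636 entries per Mb, against 0.317 over all chromosomes, PC3 METTL3 had 2.54, against 2.41, and PC3 PRMT5 had 1.27, against 0.538. At the density over all chromosomes, 0.499 LNCaP PRMT5, 3.80 PC3 METTL3 and 0.846 PC3 PRMT5 entries would fall in these windows. The counts were 1, 4 and 2, which are small numbers. That of PC3 METTL3 was near its value and those of both PRMT5 lists were above theirs. The PRMT5 lists are dense on chromosome 19, with 1.35 entries per Mb for LNCaP and 3.31 for PC3, whereas PC3 METTL3 had 1.89. The LNCaP PRMT5 entry in the windows is on chromosome 19. The 2 PC3 PRMT5 entries are on chromosomes 20 and 21, so the density on chromosome 19 does not bear on their count.

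**Figure D1:**
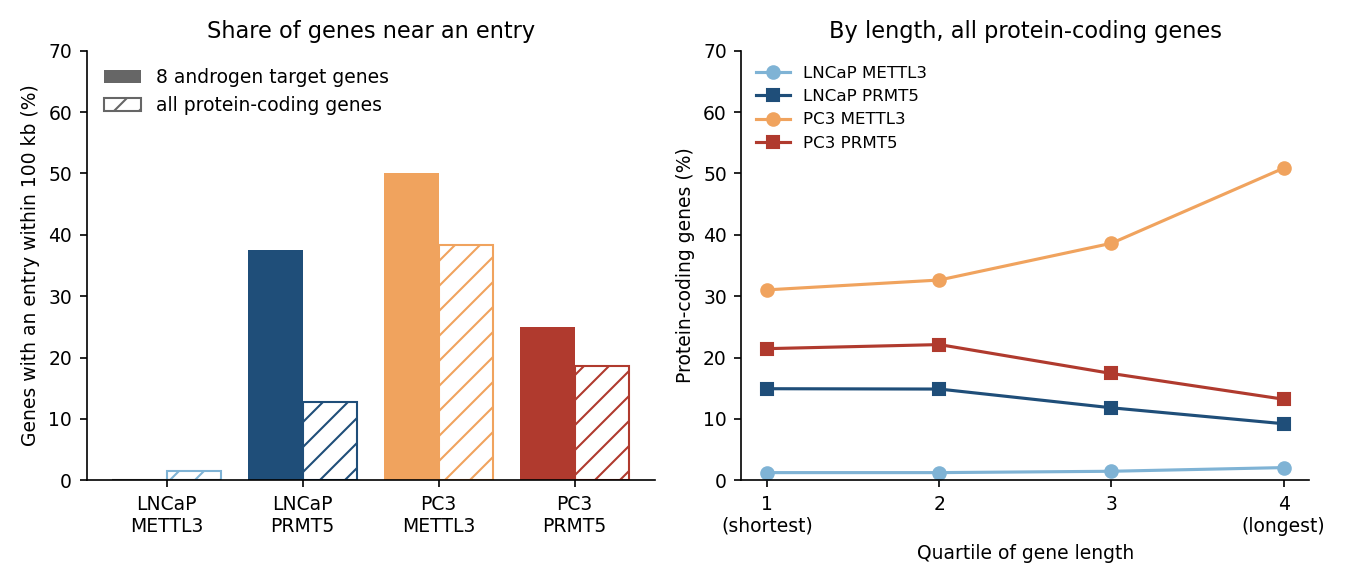
Left, the percentage of the 8 androgen target genes (filled bars) and of all 20037 protein-coding genes (hatched bars) with an entry within 100 kb, for each list; right, the percentage of all protein-coding genes with such an entry, by quartile of gene length. LNCaP PRMT5 has the widest gap, 37.5% against 12.7%, and its filled bar rests on 1 entry at the kallikrein cluster; near PC3 METTL3 entries the share is 31.0% of the shortest and 50.9% of the longest genes.

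PMEPA1 was the gene overlapped by an entry, and KLK2 and PMEPA1 were the genes with a summit near an end. The summit, which is the highest point of an entry, came within 3 kb of a start or end for 0 of 8 genes with LNCaP METTL3, 0 with LNCaP PRMT5, 2 with PC3 METTL3 (KLK2 and PMEPA1) and 0 with PC3 PRMT5. The shares among all protein-coding genes were 0.0749%, 1.92%, 2.48% and 2.42% in the same order of lists. For PC3 METTL3 the share of the set was thus 25% against 2.48%, resting on 2 genes. An entry overlapped the gene for 0, 0, 0 and 1 of the 8 genes, against 0.349%, 2.12%, 10.5% and 3.53% of all protein-coding genes. The last is PMEPA1, 12.5% of the set.

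At the kallikrein cluster, LNCaP had a high PRMT5 entry between KLK2 and KLK4 and PC3 had a METTL3 entry between KLK3 and KLK2. KLK3 spans chr19:50854915-50860764, KLK2 spans chr19:50873439-50880567, both on the plus strand, and KLK4, which encodes a secreted protease, spans chr19:50906351-50911395 on the minus strand. The 3 genes take up 56.5 kb, with 12.7 kb between KLK3 and KLK2 and 25.8 kb between KLK2 and KLK4. The pseudogene KLKP1 lies in the second of these gaps.

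The LNCaP PRMT5 entry spanned chr19:50896658-50897064, 407 bp, with a fold of 16.7 over the control and a −log10 q of 26.2, where the list's medians were a fold of 6.56, a −log10 q of 6.29 and a width of 182 bp. It was 1 of 38 entries of that list, 3.88% of 980, with a fold at least as high, and 230 protein-coding genes, 1.15%, lay within 100 kb of such an entry. Its nearest edge was 9.29 kb from KLK4, 16.1 kb from KLK2 and 35.9 kb from KLK3. Its summit lay 14.6 kb downstream of the outermost KLK4 start, 23.4 kb downstream of the KLK2 start and 41.9 kb downstream of the KLK3 start, so it was beyond the 3-prime end of all 3 genes. The nearest gene of any type was KLKP1, whose higher-coordinate end was 398 bp from the summit. The next LNCaP PRMT5 entries were 1.02 Mb away on the lower side and 4.51 Mb on the higher side. That list is sparse, with 0.317 entries per Mb over all chromosomes and 1.35 on chromosome 19.

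PC3 PRMT5 had no entry at the same place. Its nearest entry, with a fold of 6.96, was 985 kb from KLK2, 967 kb from KLK3 and 1018 kb from KLK4, and the median over all protein-coding genes was 771 kb in that list. LNCaP METTL3 had no entry on chromosome 19 at all. Whether the PC3 PRMT5 library had signal below the calling threshold at the KLKP1 site cannot be read from a list of called peaks, and its depth is unknown.

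The PC3 METTL3 entry at this cluster spanned chr19:50870662-50870953, with a fold of 6.83 and a −log10 q of 5.88. Its summit was 2.68 kb upstream of the KLK2 start and 10.0 kb past the end of KLK3, and its nearest edge was 35.4 kb from KLK4. The edge nearest to KLK2 was 2.49 kb from the gene, and 11.5% of all protein-coding genes had a PC3 METTL3 entry at least as near. A fold at least as high was held by 667 of the 7453 entries of that list, 8.95%, and exactly this fold by 174. The entry's width of 292 bp is the smallest in the list and was shared by 5436 entries, 72.9%. It lay 25.7 kb from the LNCaP PRMT5 entry.

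Farther out, 2 more PC3 METTL3 entries lay within 100 kb of KLK4, both upstream of its start and inside other kallikrein genes. The first, at chr19:50981242-50981533 inside KLK7, had a fold of 4.40 and a −log10 q of 2.28 and was 69.8 kb from KLK4. The second, at chr19:51003263-51003554 inside KLK9, had a fold of 4.10 and a −log10 q of 1.63 and was 91.9 kb away. Both were low in their list, where 81.6% and 90.1% of entries had a fold at least as high. The entry inside KLK7 was just outside the window of KLK2, at 100.7 kb.

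**Figure D2:**
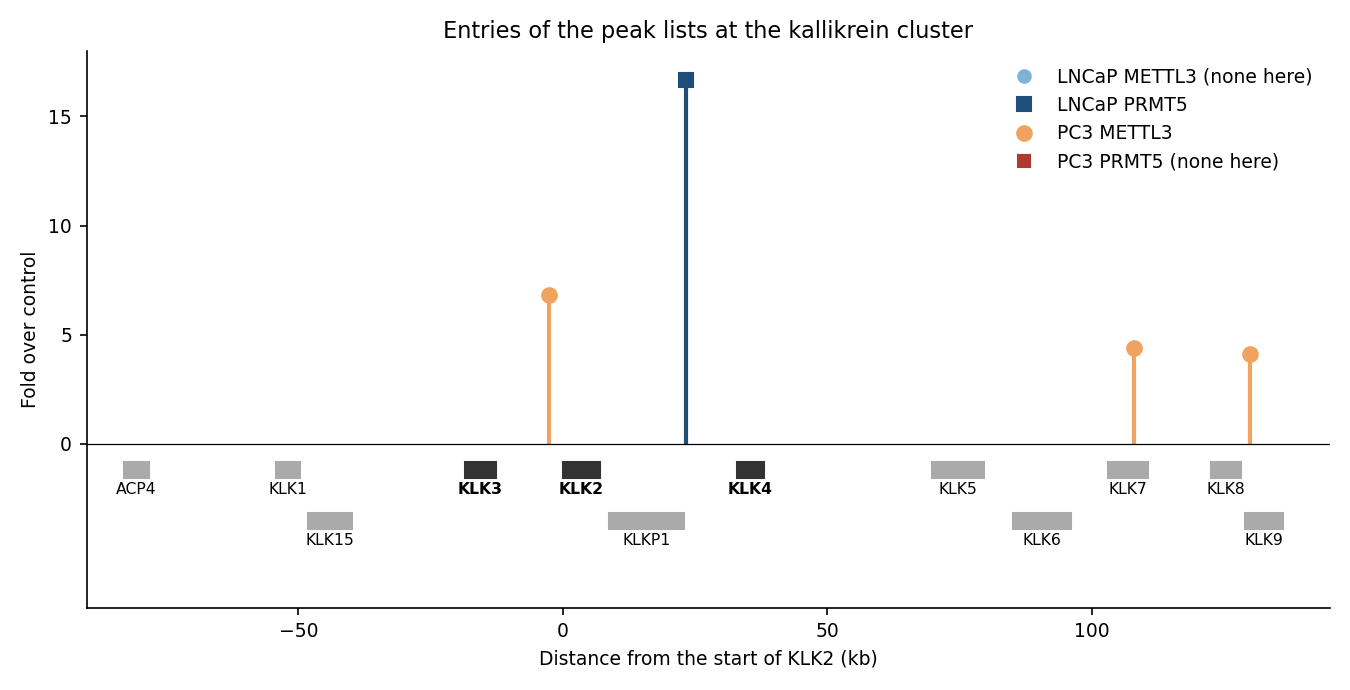
Entries of the 4 lists at the kallikrein cluster, at their summits, with the distance from the KLK2 start in kb on the x axis and the fold over the control on the y axis; boxes are ACP4, the kallikrein genes and KLKP1, with KLK2, KLK3 and KLK4 in black, and other genes are not drawn. The LNCaP PRMT5 entry at 23.4 kb has a fold of 16.7, and the PC3 METTL3 entry just left of KLK2 has a fold of 6.83.

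PMEPA1 was the gene with entries of both antibodies in PC3 and none in LNCaP. It encodes a membrane protein that binds NEDD4-family ubiquitin ligases and dampens TGF-beta signalling. The gene spans chr20:57648396-57711472 on the minus strand, 63.1 kb, with 4 annotated starts. The PC3 PRMT5 entry, at chr20:57660533-57660797, lay inside the gene with a fold of 4.86 and a −log10 q of 3.58, and its summit was 12.2 kb before the gene's 3-prime end. That summit was 30.0 kb downstream of the nearest annotated start and 50.8 kb downstream of the outermost. The PC3 METTL3 entry, at chr20:57645493-57645998, had a fold of 5.01, a −log10 q of 2.84 and a width of 506 bp, and its summit was 2.49 kb past the 3-prime end. The gap between these entries was 14.5 kb.

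Both PMEPA1 entries were of middling or low fold for their lists. Of the PC3 PRMT5 entries 78.0% had a fold at least as high, and of the PC3 METTL3 entries 59.0% did. In LNCaP the nearest METTL3 entry was 3679 kb away and the nearest PRMT5 entry 3713 kb away, against medians over all protein-coding genes of 8081 kb and 1108 kb.

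TMPRSS2, which encodes a membrane-bound serine protease, had 1 entry within 100 kb, from PC3 PRMT5. The gene spans chr21:41464305-41508158. Its strand was not given in the sources used, so upstream and downstream were not assigned for it. The entry, at chr21:41584514-41584748, had a fold of 3.28 and a −log10 q of 2.44, and 94.1% of that list had a fold at least as high. It lay 76.4 kb beyond the higher-coordinate end of the gene, and its summit was 1.76 kb from PCSEAT, a long noncoding RNA gene. Outside the window, at 164 kb and 182 kb, were 2 more PC3 PRMT5 entries with folds of 6.48 and 5.30, and within 1 Mb there were 7, against a median of 1 for all protein-coding genes. The nearest PC3 METTL3 entry was 219 kb away, the nearest LNCaP PRMT5 entry 1449 kb away and the nearest LNCaP METTL3 entry 31138 kb away.

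**Figure D3:**
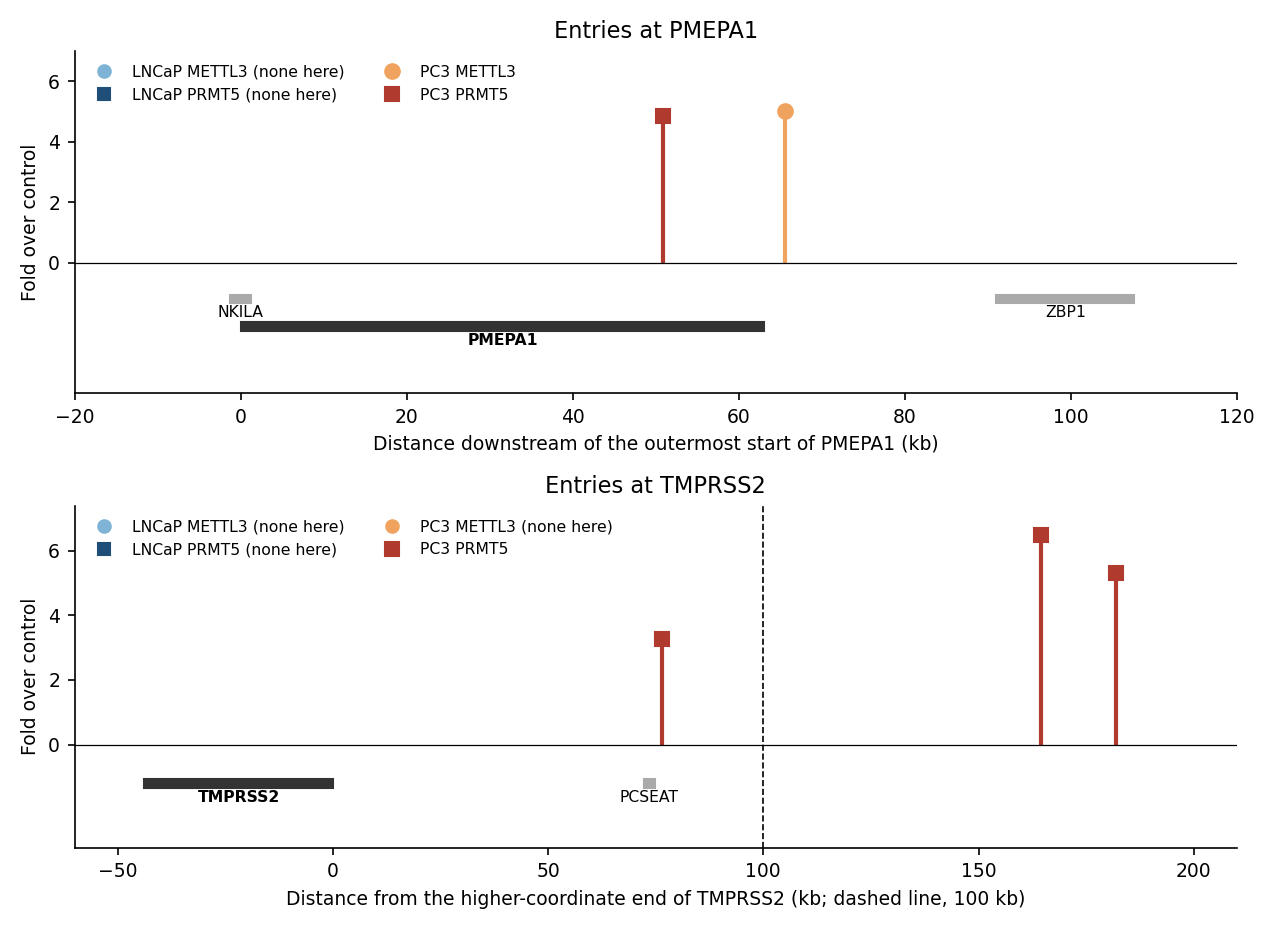
Entries at PMEPA1 (top) and TMPRSS2 (bottom), at their summits, with distance in kb on the x axis and the fold over the control on the y axis; grey boxes are selected neighbouring genes. The entries drawn come from PC3, with folds of 4.86 and 5.01 at PMEPA1 and of 3.28, 6.48 and 5.30 at TMPRSS2, where the last pair lies beyond the 100-kb line.

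The remaining 3 genes had no entry within 100 kb in any list. FKBP5 encodes a cochaperone of steroid receptors and spans 155 kb at chr6:35573590-35728583. Its nearest entries were 20059 kb away in LNCaP METTL3, 2155 kb in LNCaP PRMT5, 472 kb in PC3 METTL3 and 172 kb in PC3 PRMT5, the last with a fold of 5.89. SLC45A3 encodes prostein, a membrane transporter of prostate epithelium, and spans chr1:205657851-205680509. Its nearest entries were 1462 kb away in both LNCaP lists, 158 kb in PC3 METTL3, with a fold of 4.59, and 292 kb in PC3 PRMT5. STEAP2, a metalloreductase gene at chr7:90211740-90243408, was far from entries of every list, at 13214 kb in LNCaP METTL3, 6079 kb in LNCaP PRMT5, 612 kb in PC3 METTL3 and 9529 kb in PC3 PRMT5. A PC3 METTL3 entry at least as near was found for 83.5% of all protein-coding genes, and a PC3 PRMT5 entry at least as near for 93.6%.

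**Figure D4:**
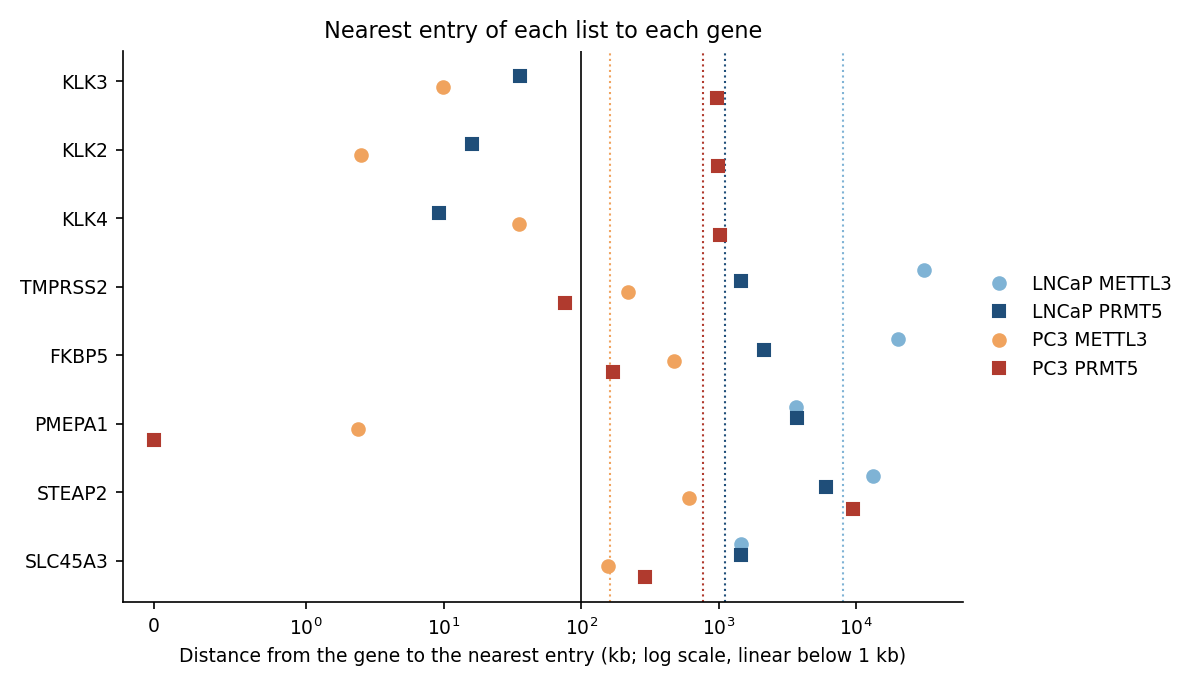
Distance in kb from each gene to the nearest entry of each list, on a log axis that is linear below 1 kb; the solid line marks 100 kb and each dotted line the median of all protein-coding genes in the list of that colour. The kallikrein genes have no LNCaP METTL3 point because that list has no entry on chromosome 19. LNCaP PRMT5 points lie left of the 100-kb line for the kallikrein genes, and at 1449 kb or more for the other genes.

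Between the lines, the order of nearness differed by gene. For PRMT5, the nearest entry was closer in LNCaP for KLK2, KLK3, KLK4 and STEAP2 and closer in PC3 for TMPRSS2, FKBP5, PMEPA1 and SLC45A3. The kallikrein genes share 1 LNCaP entry. STEAP2 was far from both PRMT5 lists, and 86.9% (LNCaP) and 93.6% (PC3) of all protein-coding genes had an entry at least as near. The PRMT5 lists hold 980 entries in LNCaP and 1661 in PC3. The share of all protein-coding genes that were closer in either line was not computed, for PRMT5 or for METTL3. For METTL3, it was closer in PC3 for the 5 genes outside the kallikrein cluster, and at the cluster LNCaP had no entry on the chromosome; the LNCaP list holds 173 entries and the PC3 list 7453. Within 1 Mb, LNCaP METTL3 had no entry at any of the 8 genes, and 10.5% of all protein-coding genes had one. LNCaP PRMT5 had at least 1 at 3 of the 8 (47.6% of all), PC3 METTL3 at all 8 (91.4%) and PC3 PRMT5 at 6 (55.3%). At FKBP5, PMEPA1, STEAP2, SLC45A3 and TMPRSS2 LNCaP PRMT5 had no entry within 1 Mb.

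Other genes of the androgen pathway were counted in the same way. Of 24 genes of androgen receptor signalling, mostly cofactors, 1 had an entry within 100 kb in LNCaP METTL3, 3 in LNCaP PRMT5, 17 in PC3 METTL3 and 6 in PC3 PRMT5, that is 4.17%, 12.5%, 70.8% and 25%, against 1.52%, 12.7%, 38.3% and 18.6% of all protein-coding genes. These genes are long, with a median of 98.6 kb against 24.1 kb for all protein-coding genes, and 50.9% of the longest quartile of genes had a PC3 METTL3 entry within 100 kb; the part of length in the count of 17 was not tested. The pioneer factor gene FOXA1 had a PC3 METTL3 entry with a fold of 5.71 at 37.3 kb and no other.

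Among the cofactors, GRHL2, which encodes an epithelial transcription factor, had entries of all 4 lists within 100 kb. LNCaP had 1 METTL3 entry of fold 4.27 and 3 PRMT5 entries with a highest fold of 9.06, and PC3 had 3 METTL3 entries with a highest fold of 4.40 and 2 PRMT5 entries with a highest fold of 2.75. The demethylase gene KDM4C held a PRMT5 entry in both lines, of fold 9.34 in LNCaP and 4.33 in PC3, with summits 37030 bp and 37029 bp from the nearer end of the gene. CARM1, an arginine methyltransferase that coactivates nuclear receptors, was the gene of this list with a summit within 3 kb of an end, at 2224 bp, and its highest PC3 PRMT5 fold was 6.48. Near HSP90AA1, a chaperone gene of steroid receptors, the highest PC3 PRMT5 fold was 7.06, at 93.7 kb. PC3 METTL3 entries inside NCOA1, a coactivator gene, and ERG, an ETS factor gene, both had a highest fold of 6.52.

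Of 37 other androgen-regulated protein-coding genes, 1 had an entry within 100 kb in LNCaP METTL3, 2 in LNCaP PRMT5, 17 in PC3 METTL3 and 4 in PC3 PRMT5, that is 2.70%, 5.41%, 45.9% and 10.8%, against 1.52%, 12.7%, 38.3% and 18.6% of all protein-coding genes. TRIB1, a pseudokinase gene, had 2 LNCaP METTL3 entries, with a highest fold of 7.42 and the nearest summit 395 bp from an end. In PC3 it had a METTL3 entry of fold 5.19 at 84.3 kb and a PRMT5 entry of fold 6.78 at 7.57 kb. A LNCaP PRMT5 entry of fold 6.71 lay inside ABCC4, a transporter gene, which had no PC3 PRMT5 entry within 100 kb. Near UBE2C, a ubiquitin-conjugating enzyme gene, PRMT5 entries of both lines lay 74.1 kb away, with a fold of 9.50 in LNCaP and 3.04 in PC3. XRCC5, a DNA end-joining gene, had a PC3 METTL3 summit 2531 bp from an end, with a highest fold of 4.77. The highest PC3 METTL3 folds near these genes were 6.83 at TPD52 and ZBTB10 and 6.22 at B2M, and the other PC3 PRMT5 folds were 5.92 at 93.1 kb from FASN, the fatty acid synthase gene, and 4.33 at 42.7 kb from NDRG1.

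Of 20 genes of steroid synthesis and metabolism, 0 had an entry within 100 kb in either LNCaP list. The shares of all protein-coding genes there were 1.52% for METTL3 and 12.7% for PRMT5. In PC3, 7 of the 20 had a METTL3 entry and 4 a PRMT5 entry, that is 35% and 20%, against 38.3% and 18.6% of all protein-coding genes. The highest PC3 METTL3 folds were 6.83 at 53.3 kb from SRD5A3, a reductase gene, 6.31 at 22.8 kb from UGT2B15, which encodes an androgen-glucuronidating enzyme, and 5.92 at 53.8 kb from CYP11A1, which encodes the side-chain cleavage enzyme. In PC3 PRMT5 they were 6.77 at 54.4 kb from CYP11A1, 6.18 at 88.6 kb from SULT2A1, a sulfotransferase gene, and 5.89 at 56.3 kb from HSD17B6, a hydroxysteroid dehydrogenase gene. The 12 other kallikrein genes lie in the same cluster as KLK2, KLK3 and KLK4, so their counts are not independent of those above. Of them 6, 50%, lay within 100 kb of the LNCaP PRMT5 entry at KLKP1, against 12.7% of all protein-coding genes. All 12, 100%, had a PC3 METTL3 entry in that distance, against 38.3%. None had a LNCaP METTL3 or PC3 PRMT5 entry there, against 1.52% and 18.6%. PC3 METTL3 summits lay within 3 kb of an end of KLK7, KLK8 and KLK9, 3 of the 12, against 2.48% of all protein-coding genes. They belong to the low entries inside KLK7 and KLK9 described above, and KLK8 and KLK9 share the summit inside KLK9.

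Luminal and basal or mesenchymal genes were counted as well. The neighbouring luminal keratin genes KRT8 and KRT18 lay 56.4 kb and 53.3 kb from 1 LNCaP PRMT5 entry of fold 7.28, and CDH1, the E-cadherin gene, held a PC3 METTL3 entry of fold 4.10, so 2 of 5 luminal genes, 40%, had a LNCaP PRMT5 entry, against 12.7% of all protein-coding genes, but the 2 share it. With PC3 METTL3 it was 1 of 5, 20%, against 38.3%. With LNCaP METTL3 and PC3 PRMT5 it was 0 of 5, against 1.52% and 18.6%. Of 6 basal or mesenchymal genes, CD44, an adhesion receptor gene, lay 49.9 kb from a PC3 METTL3 entry of fold 7.13, and AXL, a receptor kinase gene, held a PC3 PRMT5 entry of fold 7.79, so 16.7% had an entry in each of these lists, against 38.3% and 18.6% of all protein-coding genes. With LNCaP METTL3 and LNCaP PRMT5 it was 0 of 6, against 1.52% and 12.7%. KRT19, EPCAM, KRT5, TP63, VIM and CAV1 had no entry within 100 kb in any list.

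The pattern of highest folds within 100 kb over the 4 lists was compared with that of every protein-coding gene at least 1 Mb away, by Euclidean distance in fold units. KLK2, KLK3 and KLK4, at 16.7 for LNCaP PRMT5, 6.83 for PC3 METTL3 and no entry in the other lists, were most like CD163 and APOBEC1, which are neighbours and tied at a distance of 1.16, with 15.9 and 5.92. PMEPA1, at 5.01 for PC3 METTL3 and 4.86 for PC3 PRMT5, was most like PSMF1 and TMEM74B, tied at 0.0223. TMPRSS2, with an entry in PC3 PRMT5 alone, was most like MYEOV, at the same fold of 3.28. With 4 lists of 1 library each, such likeness describes folds near a gene and nothing more.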

How the data were processed

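In-situ chromatin libraries of LNCaP and PC3 were used as 4 lists of called peaks, 1 per antibody and line, and the 2 control libraries entered through those calls alone. The submitters' processing notes name the build hg38 and the tools Trimmomatic 0.33, Bowtie 1.1.1 and MACS2 2.1.0, beside bcl2fastq 2.17 and ChIPseeker. Settings, removal of duplicates and any shift of reads were not given in the sources used, and read depth is unknown. The fold (a ratio over the control), the −log10 p and −log10 q values and the score, which is 10 times the −log10 q within 1 unit, were deposited by the authors for each peak and were used to describe peaks within a list.

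Kept were the entries of autosomes 1 to 22 and of X and Y, 173 METTL3 and 980 PRMT5 entries in LNCaP and 7453 METTL3 and 1661 PRMT5 entries in PC3. Gene positions and the stretches before starts came from RefSeq tables of GRCh38.p14, which has the primary coordinates of hg38. The table of starts gives strand; exon, intron and UTR annotation was not used here. Distance runs from the nearest edge of an entry to the gene, and chromosome lengths were taken as the outermost gene or entry. The stretches before KLK3 and KLK2 were aligned globally with free end gaps (Biopython 1.88). Code ran in Python 3.11.15 with pandas 2.3.3, numpy 2.4.6 and matplotlib 3.10.9, and the distance step was tested on simulated data. No test was made, since each group had 1 library. The genes and the 6 further gene lists, 104 of whose 105 names are protein-coding, were chosen with earlier results of these data known. Named beside the 8 genes are list members with a summit within 3 kb of an end, up to 3 per list and library with the highest fold within 100 kb, and the most alike gene; FOXA1 was added after its values were seen. Some genes that the rule names are not reported here. Alternatives changed the window, thresholds, list length, summit or edge, and overlap.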

Additional observations from a re-analysis of the deposited data

How the results depend on the processing

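Of the 82 recomputed counts, 59 stayed within 1.5 times the reported one and 23 did not; the set is small, so a change of 1 or 2 genes moves a count. Members within 100 kb of LNCaP PRMT5 (3) became 1 when loci were counted in place of genes and stayed 3 in each other alternative, including lists cut to 173 entries. With 10 kb in place of 3 kb, 1 member had a LNCaP PRMT5 summit near an end. For PC3 METTL3 the 4 members became 2 loci, 0 in a list cut to 173 entries and 8 with a 1-Mb window, which was chosen after seeing the data. Its 4 entries became 2 with a 50-kb window, 1 at a −log10 q of at least 3, 2 at a fold of at least 5 and 0 in the cut list. Its 2 members with a summit near an end became 0 at 500 bp, 1 at a −log10 q of at least 3, 0 in the cut list and 1 when starts alone were used. For PC3 PRMT5 the 2 members became 1 with a 50-kb window, 1 at a −log10 q of at least 3, 0 at a fold of at least 5, 0 in the cut list and 6 with a 1-Mb window. Its 2 entries became 1, 1, 0 and 0 in the first 4 of these settings and 5 with a 200-kb window. The overlap between lists stayed 0 with 50% of both entries required and with a 1-kb gap allowed. Depth is unknown, so an absent entry is not an absent protein. No paired analysis was possible because each group has 1 library.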
